A study of Mus musculus with 15 samples.

Results

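The epidermal growth factor (EGF) receptor family was followed through colon RNA from 15 mice as 6 ligand genes (Areg, Ereg, Hbegf, Tgfa, Btc and Epgn) and 3 receptor genes (Egfr, Erbb2 and Erbb3). The 9 genes were chosen by name, and all 9 were found by symbol among the 55335 genes in the files. Dextran sulfate sodium (DSS), a polymer that injures the colon lining, was given to all 15 mice. The 5 mice labelled DSS had no other treatment in their label. The 5 mice labelled DSS+ICB also had ICB, immune checkpoint blockade, and the 5 labelled DSS+ICB+F. prausnitzii gavage, called gavage mice from here on, also received the gut bacterium Faecalibacterium prausnitzii by mouth. No group without DSS was measured, and the labels name no antibody, control antibody, control gavage, strain, age, cage or day of sampling. An effect of the blockade or the bacterium therefore cannot be told apart from the procedure that gave it. Levels are in FPKM, a fragment count scaled by transcript length and library size, so they can be set side by side between genes.

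Ligands of this family are made as membrane-anchored precursors, and a protease, chiefly ADAM17, cuts them free to act on the same cell or on neighbours. Bound ligand pairs the receptors with each other and switches on the RAS to ERK cascade. ERBB2 binds no ligand of its own, and ERBB3 has little kinase activity and signals through its partner. In the colon the family is known for driving epithelial repair after injury, and its ligands come from epithelium, stroma and leukocytes.

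The libraries were comparable in gene content, with 13243 to 14336 genes at 1 FPKM or more, and the total FPKM ran from 341054 to 443338. DSS+ICB mouse 3 stood apart. The median of its rank correlations with each other library was 0.768, and the next lowest was 0.886, in DSS+ICB mouse 5. Any pair among the remaining 13 libraries correlated at 0.906 or more. Mitochondrially encoded genes held 33.2% of the total FPKM in DSS+ICB mouse 3 and 9.39% in DSS+ICB mouse 2. In all other libraries they held 16.8% to 25.8%, so by this share DSS+ICB mouse 2 also lay apart. The 13 colon epithelium markers checked (Epcam, Cdh1, Krt8, Vil1, Cdx2 and others) each had a mean of at least 1 FPKM over the 15 libraries. Their summed level was 832 FPKM in DSS+ICB mouse 3, against 4512 to 7177 FPKM in the other 4 DSS+ICB mice, 5812 to 6724 in DSS mice and 5722 to 7593 in gavage mice. The 6 smooth muscle markers summed to 14675 FPKM in that mouse, against at most 4665 in any other. T cell markers (5) summed to 4.30 to 13.1 FPKM in DSS, 4.93 to 23.2 in DSS+ICB and 3.73 to 9.39 in gavage mice. Mast cell markers (6) summed to 6.33 to 37.5 FPKM over all mice, and eosinophil markers (4) to at most 3.23, with Epx at 0 in every library. Of the mast cell markers 4 had a mean below 1 FPKM. Their sum came mostly from Cma1 (group means 14.9 to 20.5 FPKM) and Kit (3.16 to 4.53). In whole tissue, fewer cells of a type and less RNA per cell cannot be told apart.

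Areg, which encodes amphiregulin, was the most abundant of the 6 ligands in 13 of the 15 mice. It supplied 41.1% to 65.4% of the summed ligand FPKM in DSS mice, 31.0% to 50.9% in DSS+ICB mice and 27.4% to 51.7% in gavage mice. The exceptions were DSS+ICB mouse 3, where Ereg led, and gavage mouse 1, where Hbegf led. Second place went to Hbegf in 5 mice, to Ereg in 5 and to Tgfa in 3. The summed ligand level was 16.2 to 73.2 FPKM in DSS mice, 37.0 to 117 in DSS+ICB mice and 17.8 to 41.2 in gavage mice, so the groups overlapped.

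On GRCm38, the assembly that mm10 denotes, 4 of the ligand genes lie within 376 kb of chromosome 5. Epgn (ENSMUSG00000035020) spans 91027464 to 91035215, Ereg (ENSMUSG00000029377) 91074622 to 91093646 and Areg (ENSMUSG00000029378) 91139599 to 91148432, all on the plus strand. Btc (ENSMUSG00000082361) spans 91357261 to 91402994 on the minus strand. Tgfa (ENSMUSG00000029999) lies on chromosome 6 from 86195223 to 86275719. The remaining ligand gene is Hbegf (ENSMUSG00000024486). For the chromosome 5 neighbours, mean FPKM in DSS mice was 0.0991 for Epgn, 4.88 for Ereg, 19.9 for Areg and 2.61 for Btc. The range of Ereg in these mice (1.18 to 10.5 FPKM) overlapped those of Btc (2.33 to 3.39) and Areg (6.75 to 47.9).

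Among DSS mice Areg varied 7.1-fold, its neighbour Btc 1.45-fold and Tgfa 1.59-fold, so Btc and Tgfa were alike in spread. The bases just upstream of the start site are shown for these 3 ligands. Each is the 250 bases before the RefSeq start on GRCm38.p6, read 5′ to 3′ on the strand of the gene, and 6 of the 9 members matched the RefSeq promoter table. Areg is at chr5:91139349-91139598 (plus), Btc at chr5:91402995-91403244 (minus) and Tgfa at chr6:86194972-86195221 (plus). Capitals mark matches to 4 motifs searched on both strands, the cyclic AMP response element CRE (TGACGTCA), AP-1 (TGANTCA), the TATA box (TATAAA) and the GC box (GGGCGG).
Areg: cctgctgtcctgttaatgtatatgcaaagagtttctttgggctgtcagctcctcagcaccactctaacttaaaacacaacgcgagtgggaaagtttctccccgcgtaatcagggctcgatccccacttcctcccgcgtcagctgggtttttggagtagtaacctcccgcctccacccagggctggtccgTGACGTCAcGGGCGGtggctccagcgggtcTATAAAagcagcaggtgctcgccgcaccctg
Btc: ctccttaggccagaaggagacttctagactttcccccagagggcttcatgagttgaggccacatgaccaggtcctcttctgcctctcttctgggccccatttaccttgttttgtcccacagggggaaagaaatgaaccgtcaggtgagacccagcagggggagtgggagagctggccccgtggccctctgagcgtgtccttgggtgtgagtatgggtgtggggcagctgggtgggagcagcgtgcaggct
Tgfa: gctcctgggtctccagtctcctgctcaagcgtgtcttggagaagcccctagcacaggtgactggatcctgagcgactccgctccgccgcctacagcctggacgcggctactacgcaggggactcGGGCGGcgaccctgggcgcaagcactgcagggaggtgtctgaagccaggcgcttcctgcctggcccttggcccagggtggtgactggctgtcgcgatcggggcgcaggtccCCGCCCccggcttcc
The Areg window held a CRE from 61 to 54 bases before the start, a GC box from 52 to 47 and a TATA box from 31 to 26, none of them overlapping. The Tgfa window held 2 GC boxes and the Btc window none of the 4 motifs. Of 32851 promoter windows of this length, 1.55% held the CRE, 6.75% AP-1, 12.4% the TATA box and 32.7% the GC box. These are matches of letters only, and no binding was measured here.

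Tests compared log2(FPKM + 1) between groups with limma, over the 14385 genes with at least 1 FPKM in at least 5 libraries. The threshold was an adjusted p of 0.05 (Benjamini-Hochberg, over all of these genes). Of the 9 members, 8 were tested, and Epgn missed the filter with 1 library at 1 FPKM or more. The comparison of DSS+ICB with DSS and that of gavage with DSS+ICB share the DSS+ICB mice, so they are not independent of each other.

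No tested member passed between DSS+ICB and DSS (0 of 8 with limma), where 0.0209% of all genes passed. At an unadjusted p under 0.05 it was 1 of 8, against 11.3% of all genes. Between gavage and DSS+ICB mice again 0 of 8 passed, against 0.132% of all genes, a share that 1 library can move widely (19 genes, and 5 to 587 with 1 library left out, the most without DSS+ICB mouse 1). There 4 of 8 had an unadjusted p under 0.05, with Ereg and Areg lower and Erbb2 and Erbb3 higher in gavage mice, against 21.8% of all genes (12.4% lower and 9.34% higher). Between gavage and DSS mice 0 of 8 passed and 0 of 8 had an unadjusted p under 0.05, where 0.0% and 1.41% of all genes did. No tested member separated 2 groups without overlap. Of all genes, 1.54% did so between DSS+ICB and DSS, 3.41% between gavage and DSS+ICB and 0.389% between gavage and DSS.

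Ereg, which encodes epiregulin, a ligand of EGFR and ERBB4, had the largest log2 differences of the 8 tested members for DSS+ICB against DSS and for gavage against DSS+ICB. In DSS mice 1 to 5 it was 5.60, 10.5, 3.99, 1.18 and 3.11 FPKM, and in DSS+ICB mice 1 to 5 it was 14.9, 16.1, 20.6, 4.33 and 33.0 FPKM. In gavage mice 1 to 5 it was 1.01, 2.67, 2.0, 6.85 and 1.69 FPKM. In DSS+ICB, 4 of 5 mice lay above every DSS mouse and above every gavage mouse, and DSS+ICB mouse 4 was the exception. The group means were 4.88 ± 3.53, 17.8 ± 10.4 and 2.84 ± 2.32 FPKM (SD, n = 5 each).

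On the log2 scale Ereg was 1.66 ± 0.50 (SE) higher in DSS+ICB than in DSS, with a 95% confidence interval of 0.59 to 2.73 and a limma adjusted p of 0.418. In gavage mice it was 2.23 ± 0.50 below DSS+ICB (log2 difference -2.23, interval -3.30 to -1.16, adjusted p = 0.0712), or 4.7-fold on the fitted scale. This second difference was past the threshold without DSS+ICB mouse 1 (adjusted p = 0.045), DSS+ICB mouse 4 (0.0215) or gavage mouse 4 (0.0273), and with array quality weights (0.0401). In the same order, 361, 72, 331 and 743 of all genes were called lower in these fits, against 18 in the main fit. The crossing is therefore not particular to Ereg. Over all 24 alternatives the adjusted p of Ereg ran from 0.0215 to 0.212 and its log2 difference from -2.63 to -1.04. Gavage mice differed from DSS mice by -0.57 ± 0.50 (adjusted p = 1.0), and DSS mouse 2 was the one DSS mouse above every gavage mouse.

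**Figure D1:**
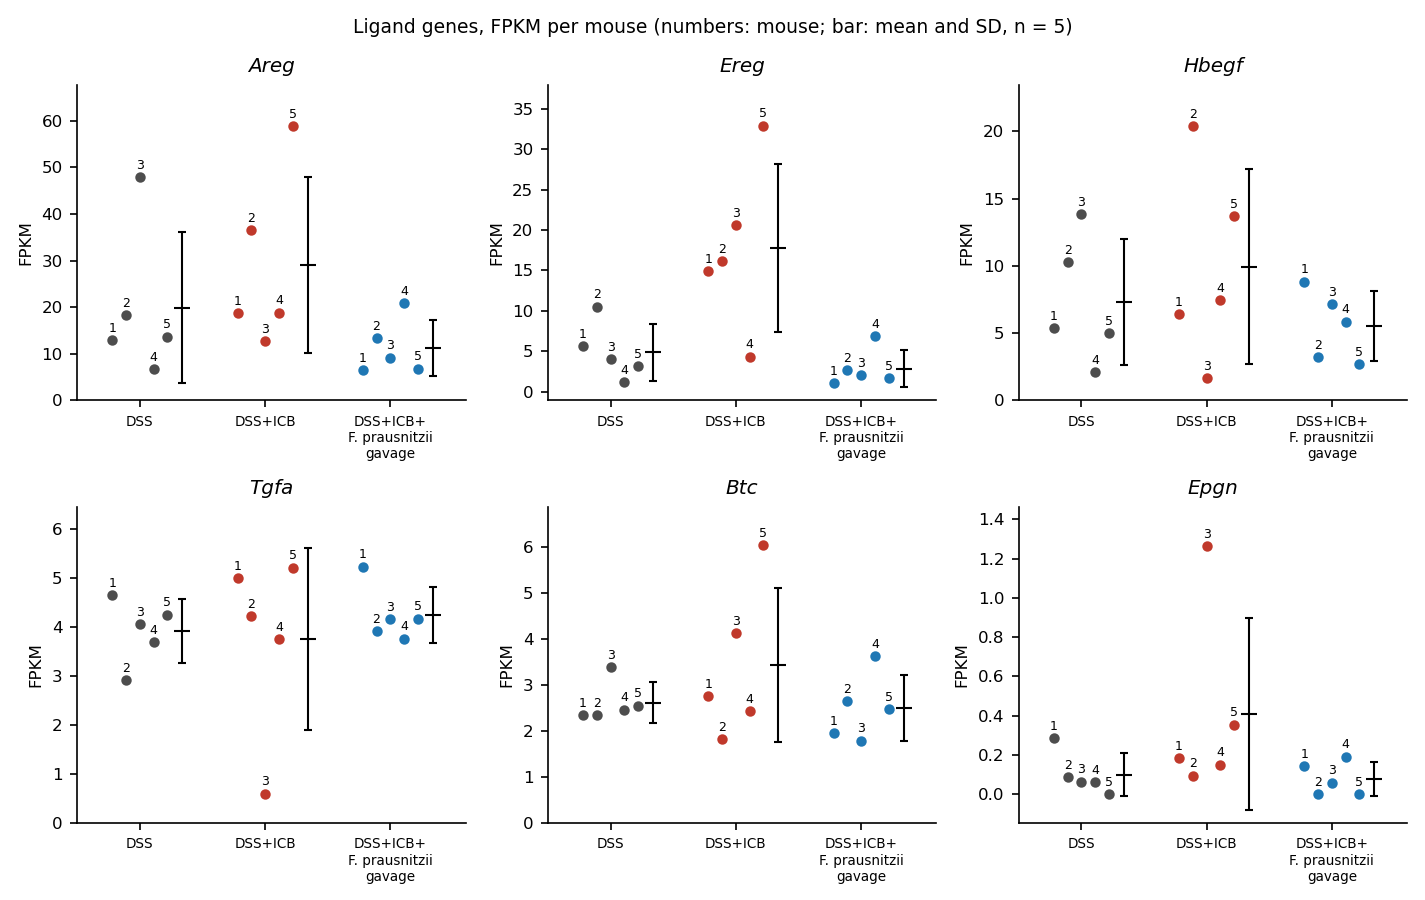
FPKM of the 6 ligand genes (y axis, linear, a separate scale for each gene) in each mouse of the 3 groups (x axis). Points are mice with their number, and bars are the group mean and SD (n = 5). Ereg is 14.9 to 33.0 FPKM in 4 of 5 DSS+ICB mice and at most 10.5 FPKM in DSS and gavage mice, and Tgfa is lowest in DSS+ICB mouse 3 at 0.595 FPKM.

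Neutrophil markers and mean Ereg were both highest in DSS+ICB and lowest in gavage mice. The summed level of 6 markers (S100a8, S100a9, Csf3r, Cxcr2, Retnlg and Mmp9) was 19.0 to 56.2 FPKM in DSS, 123 to 1991 in DSS+ICB and 1.78 to 30.6 in gavage mice, so DSS+ICB did not overlap with either, and each marker was above 0 in some library of every group. Within groups the order was less alike. In DSS+ICB the lowest neutrophil sum was in mouse 2 (123 FPKM), while mouse 4, the lowest in Ereg, had 157. In DSS, Ereg was highest in mouse 2 and the neutrophil sum in mouse 1. Within the gavage group, mouse 4 had the highest Ereg and the highest neutrophil sum, and its squamous epithelium markers summed to 23.3 FPKM against 0.366 to 5.61 in the other 4. The squamous list had 4 of its 6 markers below a mean of 1 FPKM, among them Trp63, whose group means were at most 0.0127 FPKM, and its sum came mostly from Krt14 and Krt13. Over the 15 mice the Spearman rho of Ereg was 0.83 with the neutrophil sum and 0.80 with the squamous sum. Macrophage markers summed to 294 to 475 FPKM in DSS, 248 to 865 in DSS+ICB and 248 to 286 in gavage mice. The part of these cells in the Ereg values was not tested. Without DSS+ICB mice 3 and 5, the libraries lowest in rank correlation, the log2 difference in Ereg was 1.16 for DSS+ICB against DSS (limma adjusted p = 0.624). For gavage against DSS+ICB it was -1.73 (adjusted p = 0.191).

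**Figure D2:**
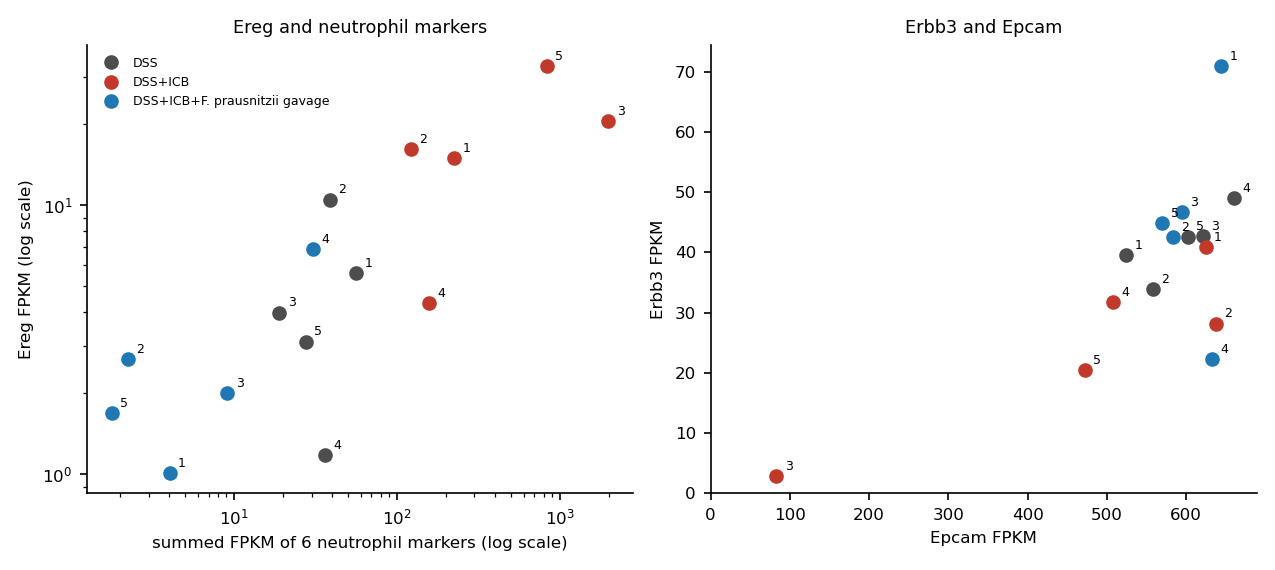
Left, Ereg FPKM (y axis, log scale) against the summed FPKM of 6 neutrophil markers (x axis, log scale); right, Erbb3 FPKM against Epcam FPKM (both linear). Points are the 15 mice, coloured by group and numbered; the DSS+ICB mice have the highest neutrophil sums (123 to 1991), and DSS+ICB mouse 3 has the lowest Epcam (83.0) and Erbb3 (2.83).

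Areg, the ligand with the highest level, was 12.98, 18.2, 47.9, 6.75 and 13.7 FPKM in DSS mice 1 to 5. It was 18.7, 36.5, 12.7, 18.8 and 58.8 FPKM in DSS+ICB mice and 6.49, 13.3, 9.20, 20.9 and 6.80 FPKM in gavage mice. DSS mouse 3 and DSS+ICB mice 2 and 5 were the high ones, and each pair of groups overlapped. The log2 difference was 0.60 ± 0.48 (SE) for DSS+ICB against DSS (adjusted p = 0.597) and -1.20 ± 0.48 for gavage against DSS+ICB (interval -2.23 to -0.18, adjusted p = 0.172). For gavage against DSS it was -0.60 ± 0.48 (adjusted p = 1.0), and ran from -0.89 without DSS mouse 4 to -0.22 without DSS mouse 3. Without DSS mouse 3 the first of these was 0.98, and without DSS+ICB mouse 5 it was 0.30, with neither past the threshold.

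Hbegf encodes heparin-binding EGF-like growth factor, which macrophages and epithelium make. It was 5.36, 10.3, 13.9, 2.09 and 4.99 FPKM in DSS mice, 6.44, 20.4, 1.65, 7.48 and 13.7 in DSS+ICB mice and 8.84, 3.22, 7.15, 5.85 and 2.69 in gavage mice. The spread within DSS+ICB was 12.4-fold, with DSS+ICB mice 2 and 3 at the ends, and the range took in every DSS and every gavage mouse. The log2 differences were 0.28 ± 0.52, -0.52 ± 0.52 and -0.24 ± 0.52 (SE) for DSS+ICB against DSS, gavage against DSS+ICB and gavage against DSS (adjusted p = 0.832, 0.578 and 1.0). The second ran from -0.96 without DSS+ICB mouse 3 to -0.20 without DSS+ICB mouse 2. The first changed sign without DSS mouse 4 (-0.02) or DSS+ICB mouse 2 (-0.04).

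Tgfa, the gene of transforming growth factor alpha, a ligand of EGFR alone, had the lowest coefficient of variation of the ligands in DSS mice (16.8%, beside 16.9% for Btc) and in gavage mice (13.6%). It was 2.91 to 4.64 FPKM in DSS mice (mean 3.91 ± 0.655, SD, n = 5) and 3.76 to 5.23 in gavage mice (4.25 ± 0.576). In DSS+ICB mice 1 to 5 it was 5.00, 4.22, 0.595, 3.75 and 5.21 FPKM, so 1 mouse lay far below the other 4. The log2 difference of DSS+ICB against DSS was -0.18 ± 0.29 with that mouse and 0.18 without it, and that of gavage against DSS+ICB was 0.28 ± 0.29 with it and -0.08 without it. Relative to Epcam, an epithelial adhesion gene at 83.0 FPKM in DSS+ICB mouse 3 and 472 to 660 in the other 14, Tgfa in that mouse was 0.717%, within the 0.522% to 0.885% of DSS mice. This ratio was chosen after the values were seen.

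Btc, which encodes betacellulin, a ligand of EGFR and ERBB4, was 2.33 to 3.39 FPKM in DSS mice, 1.82 to 6.04 in DSS+ICB mice and 1.79 to 3.62 in gavage mice. DSS+ICB mice 3 and 5, at 4.12 and 6.04 FPKM, were the 2 highest of all 15. Without both of them the log2 difference of DSS+ICB against DSS went from 0.23 ± 0.21 (SE, adjusted p = 0.666) to -0.12, and that of gavage against DSS+ICB from -0.29 ± 0.21 (adjusted p = 0.448) to 0.05.

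Epgn, the gene of epigen, had the lowest levels of the 9 members. It was listed at 0 in DSS mouse 5 and in gavage mice 2 and 5, and was at most 0.353 FPKM in every library but DSS+ICB mouse 3, which had 1.26. Fitted without the filter, over 33951 genes, the log2 difference was 0.31 ± 0.16 for DSS+ICB against DSS (limma adjusted p = 0.652) and -0.33 ± 0.16 for gavage against DSS+ICB (adjusted p = 0.386).

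Among the receptors, Erbb3 was the most abundant in 14 of 15 mice and Egfr the least abundant in 13. Egfr (ENSMUSG00000020122, chromosome 11 from 16752203 to 16918158) binds all 6 ligands measured here. Erbb2 (ENSMUSG00000062312, chromosome 11 from 98412470 to 98437716) and Erbb3 (ENSMUSG00000018166, chromosome 10 from 128567523 to 128589652) are its usual partners. Mean FPKM in DSS mice was 5.16 ± 0.318 for Egfr, 24.6 ± 5.95 for Erbb2 and 41.5 ± 5.49 for Erbb3 (SD, n = 5).

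Egfr was 4.91 to 5.68 FPKM in DSS mice and 4.29 to 5.23 in gavage mice, the lowest coefficients of variation among the 9 members in those groups (6.17% and 8.68%). In DSS+ICB mice 1 to 5 it was 6.14, 4.38, 6.40, 4.45 and 11.8 FPKM. Of these 3 lay above every DSS mouse and 2 below, so values lay on both sides of the DSS range. The log2 difference was 0.23 ± 0.19 for DSS+ICB against DSS (SE, adjusted p = 0.596), and -0.05 without DSS+ICB mice 3 and 5. For gavage against DSS+ICB it was -0.35 ± 0.19 (adjusted p = 0.288), and -0.06 without both. For gavage against DSS it was -0.11 ± 0.19, with an interval of -0.51 to 0.29.

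Erbb3 was 39.5, 33.9, 42.7, 49.0 and 42.6 FPKM in DSS mice. It was 40.9, 28.2, 2.83, 31.7 and 20.5 FPKM in DSS+ICB mice, of which 4 of 5 lay below every DSS mouse. In gavage mice it was 71.0, 42.5, 46.7, 22.2 and 44.8 FPKM, of which 4 of 5 lay above every DSS+ICB mouse, mouse 4 being the low one. The log2 difference was -1.07 ± 0.50 (SE) for DSS+ICB against DSS (interval -2.14 to 0.003, adjusted p = 0.443) and 1.12 ± 0.50 for gavage against DSS+ICB (interval 0.05 to 2.19, adjusted p = 0.214). Without DSS+ICB mouse 3 these were -0.47 and 0.52, and without mice 3 and 5 they were -0.30 and 0.35. None of these passed.

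Erbb2 was 23.1, 16.4, 25.9, 33.0 and 24.7 FPKM in DSS mice, 24.1, 25.3, 4.38, 16.4 and 11.8 in DSS+ICB mice and 40.6, 29.6, 28.5, 19.1 and 30.8 in gavage mice. In gavage, 4 of 5 mice lay above every DSS+ICB mouse. The log2 difference was -0.73 ± 0.36 (SE) for DSS+ICB against DSS (adjusted p = 0.454) and 0.98 ± 0.36 for gavage against DSS+ICB (interval 0.22 to 1.75, adjusted p = 0.147). Without DSS+ICB mice 3 and 5 these were -0.15 and 0.41. Gavage mouse 4 had the lowest Erbb2 and Erbb3 of the gavage mice, with the highest neutrophil sum of its group (30.6 FPKM) and the highest epithelium sum of all 15 mice (7593 FPKM).

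**Figure D3:**
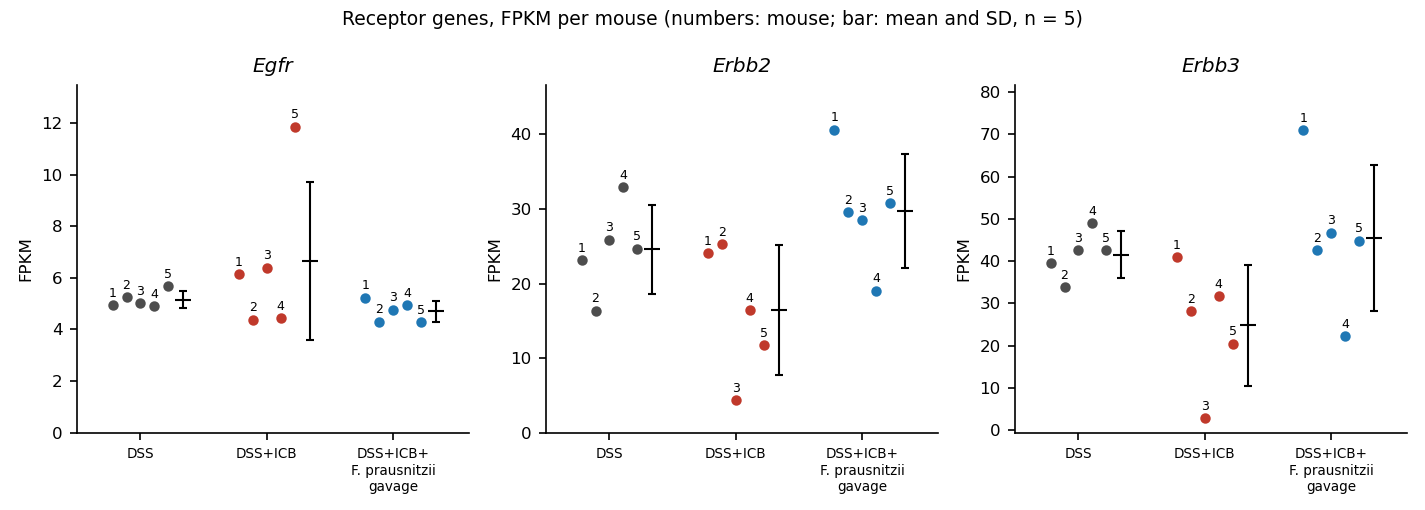
FPKM of the 3 receptor genes (y axis, linear) in each mouse of the 3 groups (x axis). Points are mice with their number, and bars are the group mean and SD (n = 5). DSS+ICB mouse 3 is at 2.83 FPKM for Erbb3 and 4.38 for Erbb2, and DSS+ICB mouse 5 is at 11.8 for Egfr.

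Over the 15 mice the receptors ranked weakly with the summed epithelium markers (Spearman rho 0.13 for Erbb2, 0.08 for Erbb3 and -0.19 for Egfr), and ranked against the summed neutrophil markers for Erbb2 (-0.79) and Erbb3 (-0.75). Krt8 and Krt19 were the largest parts of the epithelium sum (means 1986 and 1391 FPKM in DSS mice). Their part in the order of that sum between mice was not tested. The rho values describe 15 libraries of 3 groups and carry no test. DSS+ICB mouse 3 was low in both epithelium markers and these 2 receptors. Relative to Epcam, Erbb2 in DSS+ICB mouse 3 was 5.28%, against 2.93% to 4.99% in DSS mice. Erbb3 in the same mouse was 3.41% of Epcam, below the 6.07% to 7.54% of DSS mice, and in DSS+ICB as a group it was 3.41% to 6.55%. In gavage mice Erbb3 was 3.52% to 11.02% of Epcam and Erbb2 3.01% to 6.31%. Egfr in DSS+ICB mouse 3 was 7.71% of Epcam and in mouse 5 it was 2.51%, against at most 0.983% in all other mice. Egfr is also made by stroma, and the 5 fibroblast markers summed to 389 and 430 FPKM in these 2 mice, the highest of the 15. The 6 neutrophil markers were likewise highest in these 2 mice, at 1991 and 836 FPKM. Over the 15 mice Egfr had rho 0.30 with the fibroblast sum and 0.56 with the neutrophil sum. The ratios to Epcam describe single libraries, and the part of tissue makeup in the receptor differences was not tested.

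**Figure D4:**
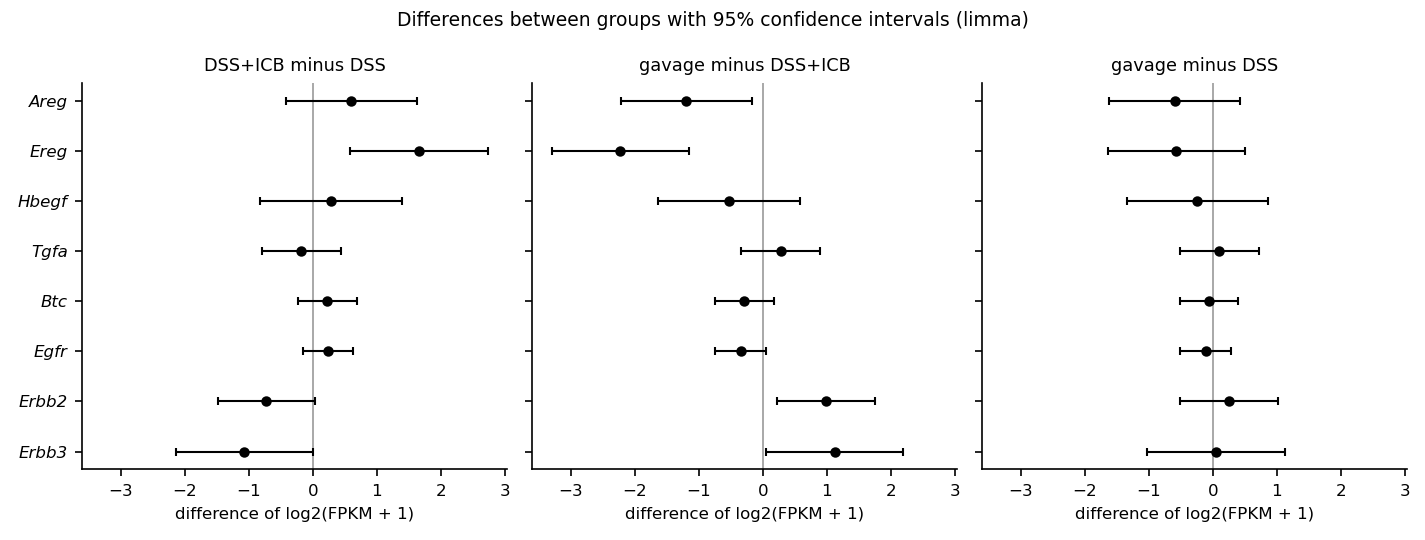
Difference of group means on the log2(FPKM + 1) scale (x axis) for the 8 tested members (y axis) in the 3 comparisons. Points are limma estimates and bars 95% confidence intervals. Ereg has the widest displacement, 1.66 and -2.23 in the first and second comparison, and all intervals of gavage minus DSS include 0.

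Across the 15 mice the members differed in how they ranked the mice. Erbb2 and Erbb3 ranked the mice most alike (Spearman rho 0.89, Pearson r 0.95 on the log2 scale, and r 0.79 without DSS+ICB mice 3 and 5). Ereg ranked them nearly the other way from Erbb3 (rho -0.91, r -0.67, and r -0.70 without both mice). Areg and Ereg had rho 0.70 and Areg and Hbegf 0.63, while Tgfa and Areg had 0.06. These are descriptions over 15 libraries of 3 groups, which share group differences and tissue makeup, and carry no test.

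The genes most like each member by rank over the 15 libraries, members and predicted models left out, were Il1rl1, Mmp19 and Tpm4 for Ereg (rho 0.97, 0.96 and 0.95) and Tuba1c, Cxcl16 and Rnf183 for Areg (0.92, 0.90 and 0.90). For Hbegf they were Fam172a, Dusp6 and Klf10 (0.88, 0.88 and 0.86), for Tgfa Pigm, Zbtb39 and Ddi2 (0.91, 0.91 and 0.89) and for Btc Ret, Nt5dc3 and Grb10 (0.94, 0.91 and 0.88). For Egfr they were Rnf24, Lrrfip1 and Klra2 (0.92, 0.85 and 0.84), for Erbb2 Mkrn1, Fam234a and Tmc4 (0.98, 0.97 and 0.97) and for Erbb3 Rhbdl2, Kif13b and Rnf103 (0.94, 0.94 and 0.93). They are the highest of 14385 genes and were selected for it.

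Of the family's remaining ligands and receptor, Egf, Nrg1, Nrg2, Nrg3, Nrg4 and Erbb4, 0 of 6 passed the filter. Erbb4 was at most 0.00487 FPKM in any library and was listed at 0 in all DSS mice. Nrg1, a ligand of ERBB3, was 0.295 to 0.811 FPKM in DSS, 0.598 to 3.20 in DSS+ICB and 0.106 to 0.734 in gavage mice.

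Genes around the receptors were counted by role, and 0 passed in any of the 4 lists tested or in any of the 3 comparisons. The 6 ligand release genes (Adam17, Adam10, Adam9, Rhbdf1, Rhbdf2 and the inhibitor Timp3) had a median log2 difference of 0.21 for DSS+ICB against DSS and -0.28 for gavage against DSS+ICB, where all genes had 0.02 and -0.04. At an unadjusted p under 0.05 it was 1 of 6 in each, against 11.3% and 21.8% of all genes. That gene was the metalloprotease Adam9, at 0.47 ± 0.21 and -0.55 ± 0.21 (SE, adjusted p = 0.435 and 0.16). Timp3, next by p, had 0.59 and -0.70 (adjusted p = 0.503 and 0.268). Its mean in DSS+ICB mice was 37.9 FPKM and its median 22.5, with 2 mice above every DSS mouse. Values of single pathway genes were not followed through the alternative fits.

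The 18 signal relay genes, among them the adaptor Grb2 and the RAS genes, had medians of 0.12 and -0.04, with 2 of 18 at an unadjusted p under 0.05 in each comparison. Of all genes 11.3% and 21.8% were, so neither count is above the background. Map2k1, which encodes the kinase MEK1, had -0.35 ± 0.15 for DSS+ICB against DSS and 0.46 ± 0.15 for gavage against DSS+ICB (SE, adjusted p = 0.434 and 0.119). The adaptor Shc1 had 0.26 in the first comparison and the phosphatase Ptpn11 -0.36 in the second. The 16 genes that restrain the receptors or the cascade below them had medians of 0.15 and -0.18. Of these, 4 of 16 and 3 of 16 had an unadjusted p under 0.05, against 11.3% and 21.8% of all genes. The second count is therefore not above the background. Of the genes with the smallest p, Spred1 and Spry1, inhibitors of the cascade, had 0.38 and 0.39 in the first comparison, and Spry4 and Spred1 had -0.77 and -0.37 in the second.

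The 12 tested targets of the ERK branch lay farthest from 0, with medians of 0.54 for DSS+ICB against DSS and -0.79 for gavage against DSS+ICB. At an unadjusted p under 0.05 it was 4 of 12 in the first comparison, all higher in DSS+ICB, against 11.3% of all genes (7.08% higher). In the second it was 8 of 12, all lower in gavage mice, against 21.8% of all genes (12.4% lower). The lists were chosen with earlier results of these data known, and both comparisons share the DSS+ICB mice. These counts are therefore a description and not independent support. Ier3, an immediate early gene, had 1.43 ± 0.42 and -1.72 ± 0.42 (SE, adjusted p = 0.407 and 0.0802). Phlda1 had 1.08 in the first comparison (adjusted p = 0.418), and Plaur, the urokinase receptor gene, had -1.69 ± 0.41 in the second (adjusted p = 0.0802). The summed neutrophil markers were also highest in DSS+ICB mice and lowest in gavage mice, as given above, and their part was not tested. Between gavage and DSS mice the 4 lists had medians of -0.10 for ligand release, 0.01 for signal relay, 0.04 for restraint and -0.26 for ERK targets, with at most 1 gene of a list at an unadjusted p under 0.05, Emp1 at -1.84 ± 0.77 (adjusted p = 1.0). The other genes with the smallest p of their list were Egr1 at -0.97, Adam17 at -0.32, Rhbdf1 at 0.20, Mapk3 at 0.28, Ptpn11 at -0.15, Spred2 at 0.18 and Dusp4 at -0.30.

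**Figure D5:**
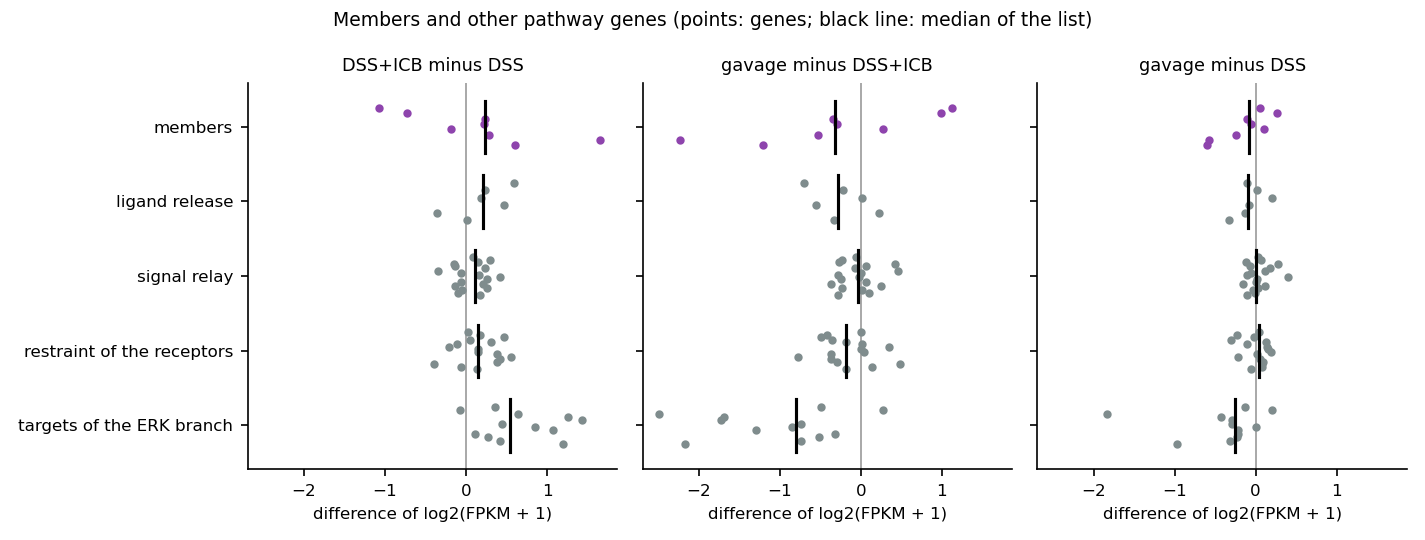
Difference of group means on the log2(FPKM + 1) scale (x axis) for the 8 tested members and 4 lists of pathway genes (y axis) in the 3 comparisons. Points are genes and black lines list medians. The ERK target list sits at medians of 0.54, -0.79 and -0.26, and the signal relay list at 0.12, -0.04 and 0.01.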

How the data were processed

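RNA of colon tissue from 15 mice was sequenced, 5 in each of 3 treatment groups taken from the labels. Per the submitters' processing notes, the authors used FastQC, STAR 2.5 on mm10, Cuffnorm and DESeq, and the deposited values are FPKM, read as such from the tool named and from values that are not whole numbers. Any scaling of the FPKM between libraries is not given in the sources used here. No 2 libraries were identical. Whole reads were looked for in 34186 genes with 1 transcript. At the depth with the best match, 27.7% to 34.2% of low values lay within 0.03 log2 of a whole step, so reads were not recovered, the depth of each library is unknown and no count test was used.

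Symbols came from GENCODE M21 on GRCm38 (55154 of 55335 IDs matched) and promoter sequences from RefSeq on GRCm38.p6. limma 3.58.1 in R 4.3.3, with trend and robust fitting, was fitted to log2(FPKM + 1) of all 15 libraries with 1 mean per group. Genes needed 1 FPKM in 5 libraries. Tests were two-sided, and p-values were adjusted over all 14385 genes. The pseudocount of 1 understates the differences of low genes. The labels do not say whether mice shared a cage or litter, so p-values measure the spread between these mice. The fit was tested on simulated data with independent noise for each gene and no library set apart. That test therefore does not cover a library such as DSS+ICB mouse 3.

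Alternatives were 2 other scalings, a pseudocount of 0.1 or 10, array quality weights, a fit of 2 groups only, a minimum of 5 FPKM or none, and leaving out each library or DSS+ICB mice 3 and 5 together. All members are named. Of each pathway list, the members that passed are named, or the 2 with the smallest p where none passed. The members, lists and tests were chosen with earlier results of these data known. Levels of genes outside these rules (Nrg1, Erbb4, Epcam, Krt8, Krt19, Krt13, Krt14, Trp63, Cma1, Kit) were named after their values were seen.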

Additional observations from a re-analysis of the deposited data

Results flagged for a closer look

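Each member was checked in each group for a mouse far from the other 4 on the log2(FPKM + 1) scale, by Dixon's criterion. Chance alone flags about 1 in 20 groups, and 27 groups of values were checked. In 3 of them a mouse stood apart. Tgfa was 0.595 FPKM in DSS+ICB mouse 3, below the other 4 at 3.75 to 5.21. Erbb3 was 2.83 FPKM in the same mouse, below the other 4 at 20.5 to 40.9. Btc was 3.39 FPKM in DSS mouse 3, above the other 4 at 2.33 to 2.55.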

How the results depend on the processing

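Of 570 values of members under the alternatives, 551 kept their direction and their side of the threshold, 4 passed it (all Ereg, gavage against DSS+ICB) and 15 changed sign, none of which was past the threshold before or after. Neither other scaling changed a sign or call of a member. For DSS+ICB against DSS the sign changed for Tgfa with array quality weights (0.027) and for Tgfa (0.12), Btc (-0.12) and Egfr (-0.052) without DSS+ICB mice 3 and 5. With 1 library left out, Tgfa ran from -0.31 to 0.18 (without DSS+ICB mouse 3), and Hbegf from -0.038 (without DSS+ICB mouse 2, and -0.023 without DSS mouse 4) to 0.72. For gavage against DSS+ICB it changed for Tgfa (-0.020) and Btc (0.055) without DSS+ICB mice 3 and 5, and with 1 library left out Tgfa ran from -0.078 (without DSS+ICB mouse 3) to 0.41. For gavage against DSS, with 1 library left out, Hbegf ran from -0.55 to 0.018 (without DSS mouse 3) and Btc from -0.17 to 0.012 (without gavage mouse 3, and 0.0084 without DSS mouse 3). Erbb3 ran from -0.13 (without gavage mouse 1, and -0.021 without DSS mouse 2) to 0.28. The cause was not tested.

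The number of members called for gavage against DSS+ICB was 1 in place of 0 with array quality weights, and 0 to 1 with 1 library left out. It stayed at 0 in the other comparisons under each alternative. The number of all genes called, 3 for DSS+ICB against DSS, was 0 with a pseudocount of 0.1, 1 with a pseudocount of 10, with no filter, with a filter at 5 FPKM, with 2 groups only and without DSS+ICB mice 3 and 5, and 0 to 7 with 1 library left out. For gavage against DSS+ICB it was 19, and 11 with upper-quartile scaling and with a filter at 5 FPKM, 42 and 5 with pseudocounts of 0.1 and 10, 7 with no filter, 0 with 2 groups only and 964 with array quality weights. With 1 library left out it was 5 to 587, namely 587 without DSS+ICB mouse 1, 456 without gavage mouse 4, 133 without DSS+ICB mouse 2, 74 without DSS+ICB mouse 4 and 5 to 11 without any of DSS mouse 2, DSS+ICB mice 3 and 5 or gavage mice 1, 2, 3 and 5. No paired analysis was possible because the labels carry no replicate numbers that match mice between groups. The depth is unknown, so no limit can be set on the values listed at 0.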
